A study of Mus musculus with 7 samples.

Results

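The AP-1 factors examined here were the 10 genes Fos, Fosb, Fosl1, Fosl2, Jun, Junb, Jund, Atf3, Batf3 and Maff, taken as the rows of the deposited gene count table that carry these symbols, out of 55484 genes listed. The study set mouse embryonic stem cells (mESC), as pluripotent stem cells, against mouse embryonic fibroblasts (MEFs). RNA-seq gave 4 MEF and 3 mESC libraries, all labelled with a C57/Bl6 background and without any treatment, age or passage. The study speaks of biological replicates, with equal numbers for both cell types, whereas the table holds one MEF column more. Neither it nor the labels say whether the libraries of a cell type came from separate cultures, so the p-values below measure the spread between these libraries, which may be technical. The columns of the table show the cell type but not which numbered sample they hold, and the libraries are therefore named by their totals, which were 11.4, 7.31, 9.18 and 6.53 M counts in MEFs and 8.19, 8.06 and 7.46 M in mESC.

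The cell type markers followed the labels. Pou5f1, a core pluripotency factor, averaged 0.604 CPM (counts per M counts of a library, scaled by the TMM method) in MEFs and 116 in mESC, and Thy1, a fibroblast surface antigen, averaged 352 in MEFs and 7.10 in mESC. The summed level of 8 pluripotency markers lay between 39.8 and 45.3 CPM in MEFs and between 2932 and 3208 in mESC, and that of 10 fibroblast markers between 23709 and 40757 in MEFs and between 159 and 182 in mESC. The summed level of 10 blood and macrophage markers was 25.5 to 78.8 CPM in MEFs and 83.8 to 90.6 in mESC, that of 6 endothelial markers 17.03 to 26.1 and 32.6 to 56.5, and that of 6 keratinocyte markers 149 to 188 and 139 to 173. The blood and macrophage sum in mESC was mostly Laptm5, with a mean of 58.4 CPM against 3.02 in MEFs. Of the 7 genes of this list that were tested, Cd68 was also higher in mESC, with 9.82 against 4.44 CPM. Cd53 and Lyz2 were lower, and 3 did not pass. Ptprc, the pan-leukocyte antigen, was not tested and had at most 1 count in a mESC library. The endothelial sum in mESC was mostly Pecam1, with a mean of 29.8 CPM against 2.79 in MEFs. Of the 6 keratinocyte markers, all tested, 0 passed the test between the cell types, and the source of their level in both was not tested.

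AP-1 is a transcription factor that binds DNA as a pair of basic leucine zipper proteins. JUN proteins can pair with each other or with a FOS protein, whereas FOS proteins need a JUN partner, and the pair recognises the letters TGANTCA or, mostly with ATF partners, TGACNTCA. Fos, Fosb, Jun, Junb and Atf3 are immediate early genes, which are switched on within minutes of serum, growth factor or stress signals. FOSL1 and FOSL2 lack the strong activation domain of FOS, BATF3 acts with JUN proteins in immune cells, and MAFF is a small MAF protein that has no activation domain of its own.

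The windows around the start sites of the members that changed most in each direction are shown because the promoters of Fos and Jun are known to take up growth factor signals. Each runs 5′ to 3′ on the strand of its gene over 300 bases, from 250 before the RefSeq start (build GRCm38.p6), and capitals mark motifs found on either strand. The windows are Fos at chr12:85473640-85473939 (plus strand), Fosb at chr7:19309996-19310295 (minus), Jun at chr4:95052173-95052472 (minus) and Fosl2 at chr5:32136222-32136521 (plus).
Fos: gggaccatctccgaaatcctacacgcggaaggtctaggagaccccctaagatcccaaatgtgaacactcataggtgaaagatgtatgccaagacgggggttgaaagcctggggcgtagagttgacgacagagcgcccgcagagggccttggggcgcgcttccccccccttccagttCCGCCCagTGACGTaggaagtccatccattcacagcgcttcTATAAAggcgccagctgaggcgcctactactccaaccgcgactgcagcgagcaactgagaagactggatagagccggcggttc
Fosb: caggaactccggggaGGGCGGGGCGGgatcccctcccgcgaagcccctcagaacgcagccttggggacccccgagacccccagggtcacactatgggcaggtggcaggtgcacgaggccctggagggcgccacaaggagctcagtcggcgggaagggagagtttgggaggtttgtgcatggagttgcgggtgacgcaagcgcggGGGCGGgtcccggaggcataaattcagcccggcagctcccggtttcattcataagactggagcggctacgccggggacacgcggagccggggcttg
Jun: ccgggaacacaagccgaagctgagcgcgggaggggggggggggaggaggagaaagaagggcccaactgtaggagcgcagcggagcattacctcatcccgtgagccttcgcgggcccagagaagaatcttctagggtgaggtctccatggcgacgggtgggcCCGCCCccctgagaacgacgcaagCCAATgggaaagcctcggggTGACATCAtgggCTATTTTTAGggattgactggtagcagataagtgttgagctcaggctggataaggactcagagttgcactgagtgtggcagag
Fosl2: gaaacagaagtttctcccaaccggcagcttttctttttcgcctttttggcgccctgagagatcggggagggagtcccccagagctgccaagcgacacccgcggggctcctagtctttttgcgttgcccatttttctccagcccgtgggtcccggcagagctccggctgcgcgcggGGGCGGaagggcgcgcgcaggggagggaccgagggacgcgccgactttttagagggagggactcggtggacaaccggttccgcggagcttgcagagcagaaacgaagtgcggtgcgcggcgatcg

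The capitals in the Fos window mark a GC box (GGGCGG, on the minus strand), a TGACGT and a TATAAA, which began 74, 66 and 33 bases before the start. The Jun window held a GC box 89 bases before the start, a CCAAT, the AP-1-like element TGACATCA 45 bases before the start and a MEF2 element 33 bases before it. The Fosb window held 3 GC boxes, of which a pair overlapped, and the Fosl2 window 1. Among all 32851 RefSeq windows of this length, GGGCGG stood in 35.7%, CCAAT in 37.4%, TATAAA in 13.6%, TGACNTCA in 8.83%, TGACGT in 7.51%, TGANTCA in 7.81%, the CArG box of serum response factor in 1.63% and the MEF2 element in 0.557%. TGACGT and TGACNTCA can overlap, and these motifs were chosen after the windows had been seen. In all, 9 of the 10 members had 11 windows in the RefSeq table (all but Fosl1). None of the 11 windows held TGANTCA or a CArG box. The windows begin 250 bases before a start, so sites further upstream were not searched and their absence is not shown. The elements of the Jun window also stood in windows of members that did not pass the test described next. Atf3 held a MEF2 element and a TGACGT, 1 Maff window held TGACGTCA and another TGACATCA. The Fosl2 start of RefSeq lies 671 bases from that of the GENCODE gene model, and that of Fosb 6 bases, whereas the starts of Fos and Jun were the same in both. For Atf3, Jund, Batf3 and Junb the distances were 34706, 1210, 567 and 30 bases, and for the Maff windows 0, 899 and 1781.

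Of the 10 AP-1 factors, 9 had enough counts to be tested between mESC and MEFs. Fos and Fosb were higher in mESC, whereas Fosl2, Jun and Batf3 were lower, and Junb, Jund, Atf3 and Maff did not pass the test (edgeR quasi-likelihood test, adjusted p under 0.05). The background of these calls is high. Of 16580 genes tested, 47.9% were called, 22.8% as higher and 25.0% as lower in mESC, and 52.0% had libraries that did not overlap between the cell types. The 5 called members of 9, which were also the 5 whose libraries did not overlap, are close to these shares. The median log2 fold change was -0.37 over the 9 members and 0.04 over all genes tested.

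**Figure D1:**
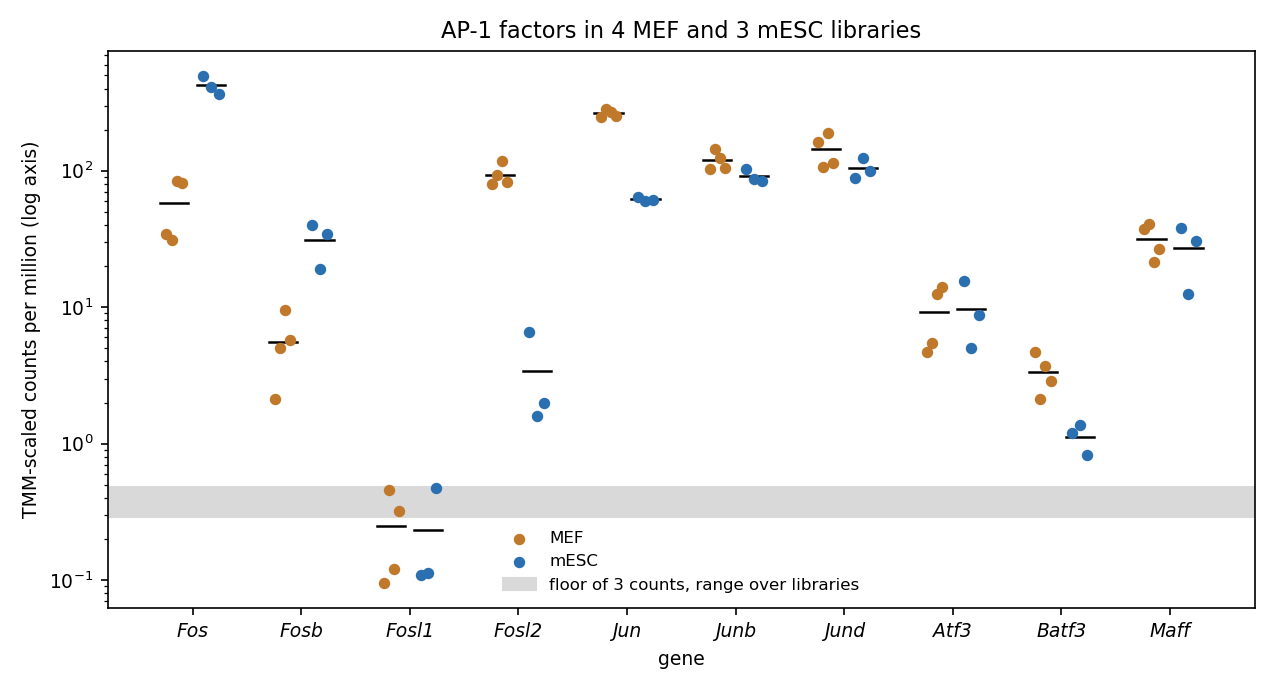
Level of each AP-1 factor in each library, in TMM-scaled CPM on a log axis, with MEF and mESC libraries as separate points and the group means as lines; the grey band spans the level of 3 counts over the libraries. Fos rises from a mean of 57.7 to 423 CPM and Fosl2 falls from 93.2 to 3.40, whereas the points of Junb, Jund, Atf3 and Maff overlap.

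Among the FOS proteins, Fos (chromosome 12, 85473890 to 85477273, plus strand, 4 exons) stood at 34.7, 31.1, 84.0 and 80.9 CPM in MEFs, in the library order given above (11.4, 7.31, 9.18 and 6.53 M counts). The mESC libraries of 8.19, 8.06 and 7.46 M counts held 494, 408 and 366 CPM. Every mESC library stood above every MEF library, and within MEFs the libraries formed a lower and a higher pair. The means were 57.7 ± 28.6 (SD, n = 4) and 423 ± 65.4 (SD, n = 3), and the fitted log2 fold change was 2.88 with a standard error of 0.34 (95% interval 2.12 to 3.64, edgeR adjusted p = 5.79e-05), or 7.35-fold. The MEF libraries with more Fos were those of 9.18 and 6.53 M counts. Their blood and macrophage marker sums were larger, 76.4 and 78.8 CPM against 41.1 and 25.5. Within that list Lyz2 was higher in them, with 32.7 and 35.8 CPM against 6.63 and 8.70. Cd68 was lower, with 3.12 and 4.30 CPM against 4.71 and 5.65. Their fibroblast marker sums were larger too, 40757 and 32242 CPM against 23709 and 27785. The part of other cells, or of differences among the fibroblasts, in this spread was not tested. In bulk libraries, more cells with a transcript and more transcript per cell cannot be told apart.

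Fosb (chromosome 7, 19302696 to 19310051, minus strand), which can bind the same sites as FOS, was far less abundant, also per kilobase of exon. It was read at 2.11, 5.04, 9.48 and 5.73 CPM in the MEF libraries and at 40.3, 19.0 and 34.6 CPM in the mESC libraries, in the same order. The groups did not overlap, and the mESC library of 8.06 M counts was the lowest of its group. Fosb was 5.63-fold higher in mESC, the log2 fold change being 2.49 ± 0.44 (standard error, edgeR adjusted p = 0.00081).

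Fosl2 (chromosome 5, 32135801 to 32157842, plus strand, 4 exons) moved the opposite way to Fos and Fosb. It was read at 80.3, 92.5, 118 and 82.4 CPM in MEFs and at 6.60, 1.59 and 2.002 CPM in mESC, where the counts were 61, 14 and 17. The mESC levels thus lay far below all 4 MEF libraries, and the library of 8.19 M counts held 66.3% of the mESC counts. Fosl2 was 27.1-fold lower in mESC, the log2 fold change being -4.76 ± 0.45 (standard error, edgeR adjusted p = 1.03e-05). Without that library the log2 fold change was -5.69. Its summed fibroblast markers were 182 CPM, against 159 and 160 CPM in the other mESC libraries, and the part of fibroblast RNA in its Fosl2 level was not tested.

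Fosl1 (chromosome 19, 5447547 to 5455946, plus strand, 4 exons), known as a fibroblast and tumour cell FOS protein, could not be compared. It had 1, 3, 1 and 2 counts in MEFs and 1, 1 and 4 in mESC, which pool to 0.222 CPM (exact 95% Poisson interval 0.0891 to 0.457, counting error only) and 0.226 CPM (0.083 to 0.492). All libraries but 1 were at or under 3 counts, so no fold is given. Exons 3 and 4 of Fosl1 (5454413 to 5454520 and 5454892 to 5455946) lie wholly under the exon of Ccdc85b, a gene on the opposite strand (5453180 to 5457894) that had 231 to 623 counts per library. Antisense exons cover 57.2% of the exon bases of Fosl1 and all of its last 500 bases, from which these 3′ libraries are read. Whether the counting used the strand is not given in the sources used here, and counters such as featureCounts leave out reads shared by 2 genes by default. The low counts of Fosl1 therefore do not show that its RNA was scarce. Of 192 protein-coding genes whose last 500 bases lie wholly under antisense exons, 52.1% reached 10 counts in some library, against 67.7% of the 18841 without such an overlap, and their median levels were 0.603 and 5.001 CPM.

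Among the JUN proteins, Jun (chromosome 4, 95049034 to 95052222, minus strand, 1 exon), the strongest activator of the 3, showed the tightest levels. It was read at 246, 283, 270 and 253 CPM in the MEF libraries and at 63.8, 60.5 and 61.5 CPM in the mESC libraries. The mESC libraries were close to each other and all lay below the MEF libraries. Jun was 4.23-fold lower in mESC, the log2 fold change being -2.08 ± 0.14 (standard error, edgeR adjusted p = 7.43e-07). An antisense RNA, Junos, overlaps 7.28% of its exon bases and had at most 16 counts in a library.

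Junb (chromosome 8, 84974484 to 84978718, minus strand), which can restrain JUN in growing cells, was read at 102, 143, 125 and 105 CPM in MEFs and at 103, 87.5 and 84.1 CPM in mESC. The highest mESC library lay within the range of the MEF libraries. The log2 fold change was -0.37 (95% interval -0.75 to 0.00, edgeR adjusted p = 0.0929). Jund (chromosome 8, 70698949 to 70700616, plus strand, 1 exon), which is commonly present at steady levels, was read at 163, 107, 190 and 113 CPM in MEFs and at 89.2, 123 and 99.4 CPM in mESC. These ranges overlapped, and the log2 fold change was -0.46 (95% interval -0.96 to 0.03, edgeR adjusted p = 0.116). Without the filter on low counts Jund passed the test (edgeR adjusted p = 0.0443). The intervals leave room for a modest fall of both genes. Antisense gene models overlap 7.52% of the exon bases of Junb (Prdx2) and 52.6% of those of Jund (Gm11175, without a count in any library), but none of their last 500 bases.

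**Figure D2:**
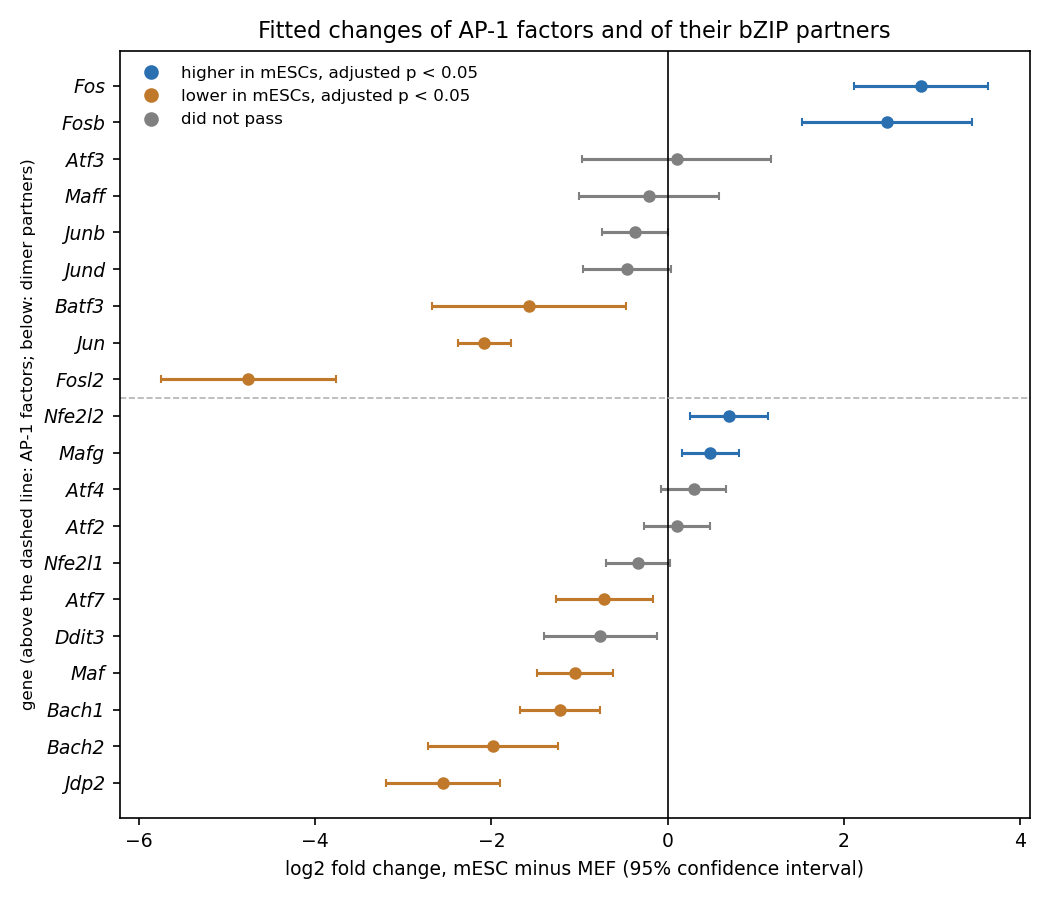
Fitted log2 fold change (mESC minus MEF) of the 9 tested AP-1 factors (above the dashed line) and 11 of the 12 tested dimer partners described further on (under it), with 95% intervals and a line at no change. Fos and Fosb lie to the higher side, Fosl2, Jun and Batf3 to the lower side, and the intervals of Junb, Jund, Atf3 and Maff include 0.

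The libraries were primed at the poly(A) tail and their molecules counted by unique identifiers, so the share of each gene in a pool was taken per counted molecule, and dividing by exon length was the alternative. In mESC the FOS pool (Fos, Fosb, Fosl1 and Fosl2 together) was made up almost wholly of Fos. Fos gave 29.6%, 24.1%, 39.8% and 47.7% of the pool in the MEF libraries and 91.3%, 95.2% and 90.8% in the mESC libraries. Fosl2 gave 68.5%, 71.6%, 55.7% and 48.7% in MEFs and 1.22%, 0.370% and 0.497% in mESC. Fosl2 was thus the larger part of the pool in all 4 MEF libraries by counts, though only narrowly in that of 6.53 M counts. These shares take Fosl1 at its few counts, which do not show that its RNA was scarce. They therefore describe the counts only. Fosb was a small part in both, with 3.39% ± 1.15 (SD, n = 4) in MEFs and 6.82% ± 2.16 (SD, n = 3) in mESC, ranges that overlapped. Per kilobase of exon, Fos was the larger part in MEFs too, with 67.2% ± 9.99 against 29.9% ± 9.55 for Fosl2, because the Fosl2 gene model is 9680 bases long and that of Fos 2352. In mESC the per-length shares were 97.0% ± 0.982 for Fos and 0.178% ± 0.119 for Fosl2.

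In the JUN pool, Jun was the largest part in MEFs and the smallest in mESC by counts. Jun gave 48.1%, 53.0%, 46.2% and 53.6% of the pool in the MEF libraries and 24.9%, 22.3% and 25.1% in the mESC libraries. Junb rose from 22.6% ± 2.99 to 35.6% ± 4.17 and Jund from 27.1% ± 6.04 to 40.3% ± 5.34 (SD, n = 4 and 3) in share, while neither gene rose in level. For Fos, Fosl2, Jun, Junb and Jund the shares of the 2 cell types did not overlap. The exact permutation test over the 35 ways of labelling the libraries gave each of these 5 shares p = 0.0286, the smallest it allows, when two-sided means an absolute difference at least as large. When the one-sided p is doubled instead, each becomes 0.0571, again the smallest possible, and no share passes 0.05. The first definition was chosen after the doubled values had been seen, so these calls rest on that choice. Per kilobase, the share of Jun still fell without overlap, from 37.7% to 16.0%, whereas the rises of Junb (23.6% to 32.9%, exact permutation p = 0.0571) and Jund (38.7% to 51.1%, exact permutation p = 0.114) did not pass under either definition.

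**Figure D3:**
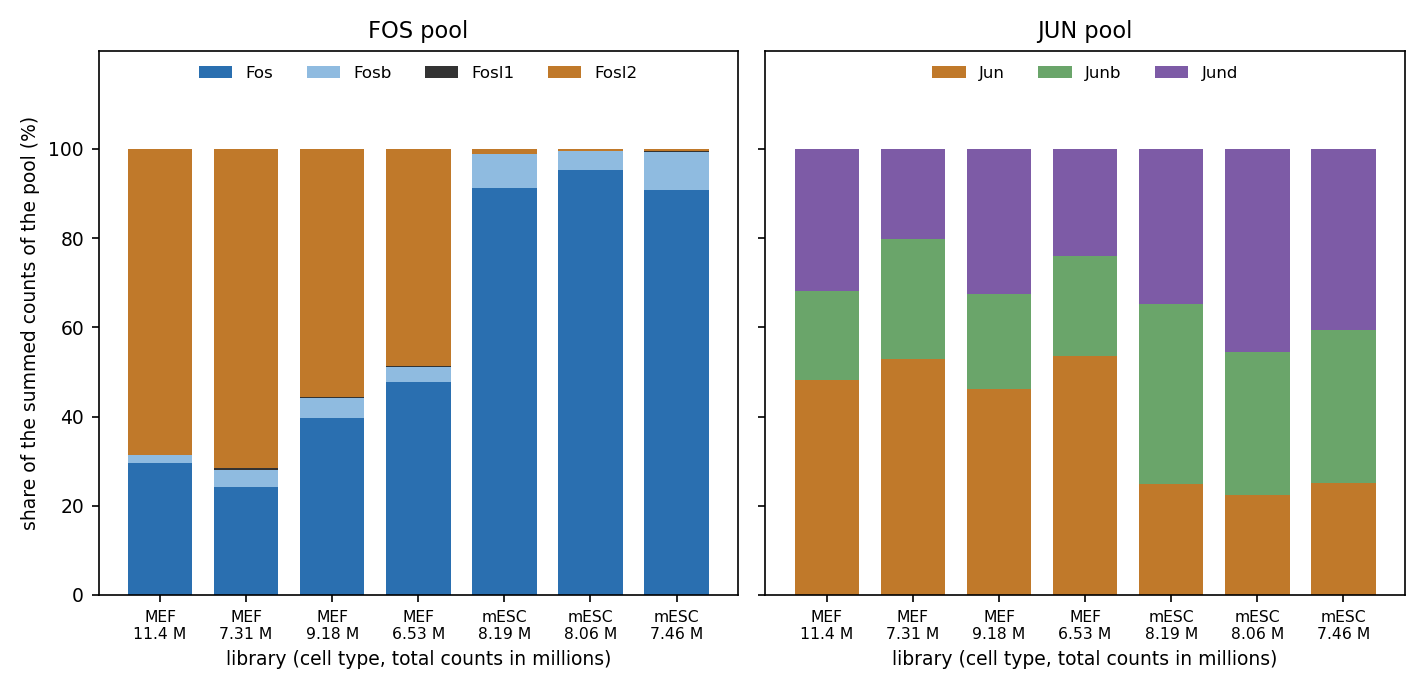
Share of each gene in the summed counts of the FOS pool (left) and the JUN pool (right), in percent, as a stacked bar for each library. Fos takes 90.8% to 95.2% of the FOS pool in mESC and 24.1% to 47.7% in MEFs, and Jun 22.3% to 25.1% and 46.2% to 53.6% of the JUN pool.

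Ratios between members of a pool do not depend on the scaling of the libraries, and 9 pairs were compared (6 in the FOS and 3 in the JUN pool, with 0.5 added to each count). The log2 ratio of Fos to Fosl2 averaged -0.82 in MEFs and 7.21 in mESC, a difference of 8.04, and that of Fosb to Fosl2 differed by 7.61. The ratio of Jun to Junb differed by -1.71 and that of Jun to Jund by -1.65. Each of these 4 differences had an exact permutation p of 0.0286 (0.0429 after Benjamini-Hochberg adjustment over the 9 pairs), or 0.0571 and 0.0735 with the one-sided p doubled, under which no pair passes. Fos and Fosb were not seen to change unequally (difference 0.42, exact permutation p = 0.371), nor were Junb and Jund (difference 0.07, exact permutation p = 0.857), although with 7 libraries unequal change of a modest size cannot be told from none. The 3 pairs with Fosl1 rest on its few counts and are not read.

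The total of each pool also moved. The FOS pool summed to 117, 129, 211 and 169 CPM in the MEF libraries and to 541, 429 and 403 CPM in the mESC libraries. The JUN pool summed to 511, 533, 585 and 471 CPM in MEFs and to 256, 271 and 245 CPM in mESC. There were thus fewer FOS than JUN counts in every MEF library and more in every mESC library. The ratio of FOS to JUN counts was 0.298 ± 0.072 (SD, n = 4) in MEFs and 1.78 ± 0.290 (SD, n = 3) in mESC, and 0.160 and 1.53 per kilobase. The FOS sums take Fosl1 at its few counts, which may miss some of its RNA, so they and the ratio may be too low. These sums of transcripts carry no test and do not measure protein or dimers.

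Ranked per kilobase of exon, the alternative scale, the AP-1 factors of MEFs were led by Jund (85.9 CPM per kilobase) and Jun (82.4). Their libraries overlapped, and Junb (51.7) and Fos (24.5) followed. Fos, Maff (12.2) and Fosl2 (9.63) overlapped in turn, and Atf3, Batf3, Fosb and Fosl1 stood lower. In mESC Fos led with 180 CPM per kilobase, ahead of Jund (62.3), Junb (39.8) and Jun (19.4), and no neighbours among these 4 overlapped. Maff (10.5), Fosb (5.01) and Atf3 (4.53) overlapped in turn, and Batf3, Fosl2 and Fosl1 stood lowest. The order by counts, the scale taken for the shares because molecules were counted, differed in MEFs. There Jun stood first alone (mean 263 CPM), ahead of Jund, Junb, Fosl2 and Fos in that order, each of these overlapping with the next. In mESC the first 4 places by counts were as per kilobase, with Jund and Junb overlapping. On both scales Jun stood behind Fos, Jund and Junb in mESC.

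Atf3 (chromosome 1, 191170296 to 191218039, minus strand), a stress-induced factor that can repress its targets, was read at 4.71, 5.50, 12.5 and 14.0 CPM in MEFs and at 15.5, 4.99 and 8.83 CPM in mESC. The spread within each cell type was about as wide as the whole range of values. The log2 fold change was 0.10 (95% interval -0.97 to 1.17, edgeR adjusted p = 0.883). Like Fos, Atf3 was higher in the MEF libraries of 9.18 and 6.53 M counts.

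Maff (chromosome 15, 79346621 to 79359076, plus strand) was read at 37.4, 40.6, 21.5 and 26.6 CPM in MEFs and at 38.3, 12.6 and 30.6 CPM in mESC. The mESC libraries included the lowest value of all and one among the highest. The log2 fold change was -0.21 (95% interval -1.0 to 0.58, edgeR adjusted p = 0.666), and its sign turned without scaling and without the mESC library of 8.06 M counts, to 0.087 and 0.13. Of the small MAF transcripts, Maff gave 37.3% in MEFs and 26.3% in mESC (exact permutation p = 0.143), and Mafg gave 62.2% and 72.8% (exact permutation p = 0.171). Without the mESC library of 8.06 M counts these differences shrank from -11.0 and 10.6 points to -5.37 and 4.55.

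Batf3 (chromosome 1, 191097847 to 191108945, plus strand), best known from dendritic cells, was among the least abundant members. Its counts were 49, 14, 31 and 18 in MEFs and 11, 12 and 7 in mESC, or 4.71, 2.14, 3.72 and 2.87 against 1.19, 1.36 and 0.825 CPM. All mESC libraries lay below all MEF libraries. Batf3 was 2.97-fold lower in mESC, the log2 fold change being -1.57 ± 0.50 (standard error, edgeR adjusted p = 0.0234). The call was lost without scaling (edgeR adjusted p = 0.0523), without the filter (0.0623), and without the MEF library of 11.4 M counts (0.0587), the mESC library of 8.19 M (0.0617) or that of 7.46 M (0.0857).

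The mESC libraries also differed among themselves. That of 8.19 M counts had the highest level of Fos, Fosb, Fosl2, Jun, Junb, Atf3 and Maff, and that of 8.06 M the lowest of Fosb, Fosl2, Jun, Atf3 and Maff. For Jun this spread was only 60.5 to 63.8 CPM, but for Atf3 and Maff it was nearly as wide as the range over all 7 libraries.

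Other bZIP proteins that can pair with AP-1 factors or with MAFF form the first list of related genes. Of 15 such partners 12 were tested, of which 2 were higher and 6 lower in mESC, with a median log2 fold change of -0.74. Over all genes tested, 22.8% were higher and 25.0% lower, which is the background for this count and those of the lists that follow. Among the transcripts lower in mESC, Jdp2, a JUN-binding repressor, fell from 28.5 to 4.82 CPM (log2 fold change -2.55, edgeR adjusted p = 4.25e-05). The MAF-binding repressors Bach2 and Bach1 fell by 1.98 and 1.22 on the log2 scale, Maf by 1.05 and Atf7 by 0.72. The Atf7 call (edgeR adjusted p = 0.0343) was lost without scaling (0.162) and without any 1 of 5 libraries (0.0508 to 0.103): the MEF libraries of 7.31 and 9.18 M counts and each mESC library.

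Partners higher in mESC were Nfe2l2, the NRF2 activator of the oxidative stress response, and Mafg. Nfe2l2 rose from 60.8 ± 14.0 to 98.5 ± 11.7 CPM (log2 fold change 0.70, edgeR adjusted p = 0.0144) and Mafg, its small MAF partner, from 51.2 ± 4.30 to 71.5 ± 1.65 CPM (log2 fold change 0.48, edgeR adjusted p = 0.0183). Both calls were lost in some settings, Nfe2l2 without the mESC library of 8.06 M counts (edgeR adjusted p = 0.0523) and Mafg without that library (0.0506), without the mESC library of 8.19 M (0.0624) or without the filter (0.125). Atf2, Atf4, Ddit3 and Nfe2l1 did not pass, with log2 fold changes of 0.11, 0.29, -0.76 and -0.34. Batf, Batf2 and Mafk had too few counts to be tested, with at most 19 in a library.

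Of 17 upstream kinases and cofactors of serum response factor (SRF), through which growth factor and stress signals reach the Fos and Jun promoters, 16 were tested, 1 was higher and 6 lower in mESC (median log2 fold change -0.40). The share called, 43.8%, was below the 47.9% of all genes tested. Elk3, an ETS cofactor of SRF that can repress Fos, fell from 70.1 to 9.89 CPM (log2 fold change -2.82, edgeR adjusted p = 2.73e-06). Mrtfb, an actin-regulated SRF coactivator, fell from 47.9 to 15.6 CPM, Elk4 from 23.1 to 9.73 and Mrtfa from 5.99 to 2.29, the last with an edgeR adjusted p of 0.0475 that was lost without scaling (0.0952), with the DESeq2 size factors (0.0509) and without any 1 library but the mESC library of 8.06 M counts (0.0619 to 0.0959). Map3k1, a kinase of the JNK pathway, rose from 88.0 to 140 CPM (log2 fold change 0.67, edgeR adjusted p = 0.00994), a call lost without the mESC library of 8.06 M counts (0.0561).

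Of 11 genes for AP-1 turnover and corepression, all tested, 1 was higher and 5 lower in mESC (median log2 fold change -0.69), and the share called, 54.5%, was close to the 47.9% of all genes tested. The ubiquitin ligase Smurf1 fell by 2.06 on the log2 scale, the deacetylase Hdac3 by 1.38 and Men1, whose protein binds JUND, by 1.26. The corepressor Ncor1 rose from 161 to 230 CPM (log2 fold change 0.52, edgeR adjusted p = 0.0211), a call that was lost without any 1 of 3 libraries.

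The other immediate early genes showed that the higher Fos and Fosb in mESC were not shared by the whole class. Of 20 such genes, all tested, 5 were higher and 10 lower in mESC (median log2 fold change -1.38), against 22.8% higher and 25.0% lower over all genes tested. This list, too, was chosen with earlier results of these data known. Higher were Socs3, a feedback inhibitor of LIF signalling (17.9 to 172 CPM, log2 fold change 3.27), Arc (1.03 to 7.99 CPM, 2.95), the MAP kinase phosphatase Dusp1 (45.4 to 247 CPM, 2.44) and the mRNA decay factor Zfp36 (35.4 to 71.8 CPM, 1.02). Lower were Ptgs2, the inducible prostaglandin synthase (27.5 to 1.32 CPM, -4.35), Ier5 (41.8 to 2.41 CPM, -4.10), the nuclear receptor Nr4a2 (15.0 to 2.16 CPM, -2.79) and Ier3 (81.4 to 15.1 CPM, -2.43). The mESC library of 8.19 M counts held 69.4% of the mESC counts of Ptgs2, whose log2 fold change was -5.41 without it, and that of Arc was 3.69 without the MEF library of 7.31 M counts. Egr1, which responds to serum much as Fos does and was named after its values were seen, had 296 ± 64.3 CPM in MEFs and 225 ± 28.1 in mESC and did not pass (log2 fold change -0.39, edgeR adjusted p = 0.105). Summed over the list, the MEF libraries held 2095 to 2564 CPM and the mESC libraries 1395 to 1687.

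Genes known as AP-1 targets in fibroblasts and tumours were lower in mESC almost without exception. Of 20 listed 19 were tested, of which 18 were lower and 0 higher, with a median log2 fold change of -3.64, against 25.0% lower over all genes tested. The list was chosen with earlier results of these data known, so this count is not an independent test. The chemokine Ccl2 fell from 173 to 0.600 CPM (log2 fold change -8.13), the collagen crosslinking enzyme Lox from 940 to 6.45 (-7.18), the chromatin protein Hmga2 from 678 to 10.0 (-6.07) and the hyaluronan receptor Cd44 from 346 to 5.65 (-5.92). The exception was the growth factor Hbegf, named after its values were seen, with 112 ± 56.6 CPM in MEFs and 114 ± 11.9 in mESC (log2 fold change 0.03, edgeR adjusted p = 0.951). Many of these targets are matrix and adhesion genes that fibroblasts express in any case, and the fibroblast markers fell with them, so the part of AP-1 in their lower level cannot be told apart from the difference in cell type.

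**Figure D4:**
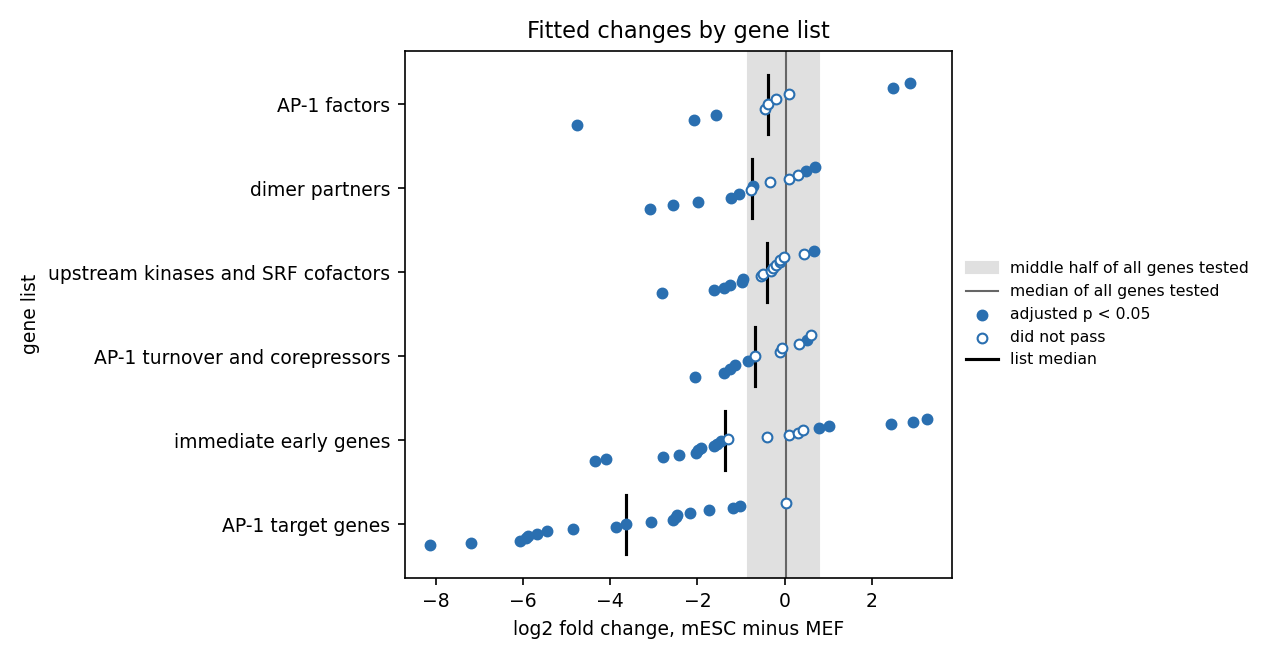
Log2 fold change (mESC minus MEF) of every tested gene of the AP-1 factors and of the related gene lists, 1 point a gene, with the median of each list and with the range between the quartiles of all tested genes shaded; filled points passed the test. The medians run from -0.37 for the AP-1 factors to -3.64 for the AP-1 target genes, against 0.04 over all genes tested.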

How the data were processed

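Per the labels and the methods of the study, RNA was primed at the poly(A) tail with unique molecular identifiers and reads were mapped to mm10 with STAR and counted with featureCounts. The authors deposited raw counts per gene for 7 libraries. The annotation release and the strand setting are not given in the sources used here. The extraction text of the labels describes blood stem cells rather than these cultures, and the study states its sorting gates for the ATAC-seq cells only.

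From the counts, edgeR 4.0.16 (R 4.3.3) gave TMM-scaled CPM and, after filterByExpr, a quasi-likelihood test of mESC against MEF with no covariate, adjusted by the Benjamini-Hochberg method over 16580 genes. A standard error is the log2 fold change divided by the square root of F. A floor of 3 counts was used for genes near 0. Alternatives were DESeq2 1.42.0, its size factors in edgeR, no scaling, no filter, at least 10 counts in all libraries of one cell type, a test against a fold change of 2, each library left out, prior counts of 2, 0.5 and log2(CPM + 1), shares per exon length or pooled, 2 added to each count of a ratio, and the doubled permutation p. The doubled p was computed first, and the absolute difference replaced it after the doubled values had been seen. On simulated counts for 16100 genes, 150 of 200 genes changed by 2 on the log2 scale were called, with 7 false calls. Far fewer genes changed there than the 47.9% called in the data. The simulation therefore does not show how scaling and false calls behave at that share. Gene models are GENCODE on GRCm38.

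The members and lists were chosen with earlier results of these data known. All members and dimer partners may be named, and of the other lists up to 4 called genes in each direction. A few of these genes are not reported here. Library pairs differed by more than counting noise (chi-square per degree of freedom 15.6 to 31.1), so none was counted as 1 sample.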

Additional observations from a re-analysis of the deposited data

Results flagged for a closer look

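One value stood apart from the rest of its group. Among 62 groups of 4 libraries examined, of which chance would flag about 3.1, the level of Mafk in MEFs was 0.916 CPM in the library of 7.31 M counts against 0.159 to 0.240 in the other MEF libraries. That value is 6 counts, and Mafk was not tested between the cell types.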

How the results depend on the processing

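No paired analysis was possible because the columns of the table are not stated to carry the sample numbers, so no library of one cell type is matched with one of the other. With the one-sided permutation p doubled, the definition computed first, the smallest p is 0.0571 and none of the 10 shares or 9 ratios passed. The absolute difference was chosen after these values had been seen. Under the doubled p these differences were not called: 57.1 points for the share of Fos, -60.4 for Fosl2, -26.1 for Jun, 12.97 for Junb and 13.2 for Jund, and log2 ratio differences of 3.16 (Fos to Fosl1), 8.04 (Fos to Fosl2), 7.61 (Fosb to Fosl2), 4.87 (Fosl1 to Fosl2), -1.71 (Jun to Junb) and -1.65 (Jun to Jund). The pairs with Fosl1 rest on its few counts and are not read under either definition. Per exon length, the share differences of Junb and Jund were 9.27 and 12.4 points and did not pass. Leaving out 1 library, where the permutation test cannot pass 0.05 and a call means groups that do not overlap, no other share or ratio turned in sign, but the share of Mafk differed by -0.021 to 0.816 points and the log2 ratio of Junb to Jund by -0.13 to 0.29.

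Of 624 values of 48 named genes under other settings, 566 kept direction and side of the threshold, 42 no longer passed, 6 newly passed and 10 turned in sign. The sign turned for Atf3 (-0.13, -0.08 and -0.40 without the MEF library of 11.4 M counts, that of 7.31 M or the mESC library of 8.19 M, in a range up to 0.41), Maff (0.087 without scaling, and -0.55 to 0.13 with single libraries left out, the latter without the mESC library of 8.06 M) and Hbegf (-0.0087 without the filter, and -0.15, -0.19, -0.0097 and -0.026 with single libraries left out, in a range up to 0.27).

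Against a fold change of 2, the dimer partners kept 0 higher and 3 lower, the kinases and cofactors 0 and 2, the turnover genes 0 and 1, and 3 immediate early genes were higher. Without the filter 1 dimer partner was higher. Without scaling, which moved the median over all genes tested from 0.04 to 0.32 (log2) and the share of higher calls from 47.7% to 61.0%, 2 kinases and 3 turnover genes were higher. Leaving out 1 library gave 0 to 2 higher dimer partners, 0 to 1 higher kinases and 0 to 1 higher turnover genes. The cause was not tested. Fosl1, Batf, Batf2 and Mafk had too few counts to be tested.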
